A study of Mus musculus with 6 samples.

Results

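Endothelial nuclei, the nuclei of the cells that line the retinal blood vessels, made up 158 of the 56205 retained nuclei of 6 single-nucleus RNA libraries (0.281%, exact Clopper-Pearson 95% interval 0.239% to 0.328%, which covers counting error only). The nuclei were chosen by their counts in these libraries. A nucleus was counted as endothelial when at least 3 of the 8 genes Pecam1, Vwf, Cldn5, Flt1, Cdh5, Kdr, Tek and Emcn had a UMI (a unique molecular identifier, which marks 1 captured RNA molecule). It also had to lack any UMI of 6 genes of other cells, namely Pdgfrb of mural cells, Inpp5d of microglia, Slc17a6 of ganglion cells, Gad1 of inhibitory amacrine cells, Trpm1 of ON bipolar cells and Abca8a of Muller glia. Retained nuclei had over 500 UMIs, at least 200 genes and under 5% mitochondrial UMIs.

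All libraries came from rd10 mice (B6.CXB1-Pde6b-rd10/J), in which a mutation of the phosphodiesterase gene Pde6b leads to the loss of rods and later of cones. Eyes were injected intravitreally at P18 with 20 ng IL-27 or with saline, in 3 libraries each, and retinas were collected at P20 and frozen. Both groups therefore shared genotype, age and injection, and no wild-type or uninjected retina was analysed here. The endothelial nuclei numbered 27, 22 and 22 in saline replicates 1, 2 and 6 and 21, 39 and 27 in IL-27 replicates 4, 5 and 10. The libraries held 8968 to 9965 barcodes and 36678332 to 48260748 UMIs each, and 18 to 30 retained barcodes were shared by any 2 libraries, none of them an endothelial nucleus in both. The summed endothelial counts held 69406, 84706 and 60329 UMIs for saline and 56911, 131319 and 70649 for IL-27, so 1 UMI weighed between 7.62 and 17.6 CPM, the usual unit of counts scaled to one common total in every library sum.

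Retinal endothelial cells form the inner blood-retinal barrier. Tight and adherens junctions seal the cells to each other, membrane transporters carry glucose, amino acids and organic anions across them, and efflux pumps return lipid-soluble compounds to the blood. Norrin and Wnt signals acting through Frizzled receptors and the transcription factor LEF1 maintain this barrier, and mural cells (pericytes and smooth muscle cells) share their basement membrane. IL-27 is a cytokine that signals through its receptor subunits IL27RA and gp130 (encoded by Il6st) to JAK kinases and STAT transcription factors such as STAT3.

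The label was checked against 18 further endothelial genes that had no part in the selection (Erg, Tie1, Ptprb, Esam, Egfl7, Robo4, Eng, Cyyr1, Mecom, Adgrl4, Sox17, Sox18, Ly6c1, Itm2a, Ramp2, Abcb1a, Slco1a4 and Slc2a1). The nuclei fell into 2 kinds. At least 3 of the 18 genes had a UMI in 129 nuclei, and 29 nuclei had 0 to 2 of them. Every one of the 110 nuclei with 4 or more of the 8 selecting genes had at least 3 check genes, whereas of the 48 nuclei with exactly 3 selecting genes only 19 did, with a median of 1 check gene. Just outside the threshold, 531 nuclei carried 2 selecting genes, and 11 of them had 3 or more check genes.

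**Figure D1:**
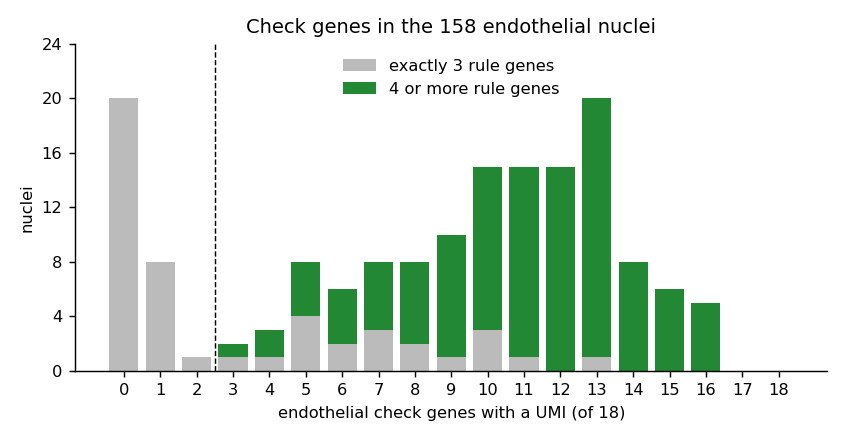
Number of nuclei (y axis) by the number of the 18 endothelial check genes with a UMI (x axis), with nuclei that had exactly 3 of the selecting genes in grey and nuclei with 4 or more in green. The dashed line marks 3 check genes: 29 nuclei lie to its left, all of them grey, and 129 lie to its right.

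The 29 nuclei with few check genes were large and carried RNA of neurons and glia. Their median was 4478 UMIs against 2290 in the other 129. On average 2.34 of 7 amacrine markers and 2.86 of 8 Muller markers had a UMI in them, against 0.388 and 1.5 in the 129. The selecting genes are no test here, since each of the 29 had to carry 3 of them. As a description, Kdr, the main signalling receptor for VEGF, had a UMI in 79.3% of the 29, Flt1 in 75.9%, Tek in 62.1%, Pecam1 in 44.8% and Cldn5, the claudin of endothelial tight junctions, in 10.3%. Of Muller nuclei 30.7% had Kdr, 3.05% Tek and 2.54% Pecam1. Flt1 and Cldn5 were absent from Muller nuclei by the selection of those nuclei, so they allow no comparison.

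The check genes and the markers of other cells thus go against the label for 29 of the 158 nuclei, although each of these carried selecting genes, as the selection required. They held 31.7% of all endothelial UMIs. Their share of the UMIs was 8.18%, 38.9% and 45.8% with saline and 14.7%, 37.2% and 37.8% with IL-27, and it was low in saline 1 and IL-27 4. The selection also left out nuclei of endothelial character. With 3 or more selecting genes and 5 or more check genes there were 248 nuclei when the 6 absent genes were ignored, and 124 of these had a UMI of such a gene, most often Inpp5d (59 nuclei) or Trpm1 (46). They had a median of 3326.5 UMIs, against 2308 in the 124 nuclei without one. Results are given for the 158 nuclei, and, where it bears on them, for the 129 nuclei and for this wider set of 248, both of which were chosen after the values were seen.

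The selecting genes are given as a description only. Flt1, the VEGF receptor that binds and limits VEGF, had lowest, median and highest levels of 2095, 2363 and 3180.4 CPM over the 6 libraries, and it had a UMI in 93.7% of the nuclei. Cldn5 lay at 495 to 966 CPM (66.5% of nuclei) and the adhesion molecule Pecam1 at 410.5 to 663 CPM (72.8%). The angiopoietin receptor Tek lay at 303 to 708 CPM, Vwf, the clotting factor stored in endothelial cells, at 201 to 629.9 CPM, Kdr at 149 to 389.6 CPM, the junction cadherin Cdh5 at 198 to 389 CPM and the sialomucin Emcn at 56.6 to 489.9 CPM. These levels count 3' ends of transcripts with no scaling by length, so they are not ranked between genes.

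Mural nuclei were the nearest vascular neighbours in the data, and the endothelial sums were set against theirs library by library. Mural nuclei had a UMI of at least 3 of Pdgfrb, Rgs5, Kcnj8, Abcc9, Notch3, Cspg4, Acta2 and Myh11. They also had to lack any UMI of Flt1, Cldn5, Inpp5d, Slc17a6, Gad1, Trpm1 and Abca8a. Only 43 nuclei met this, 3 to 13 per library, and their sums held only 6543 to 41400.0 UMIs, so a mural level rests on few counts. Outside all genes used to pick nuclei, 895 genes were tested with edgeR (quasi-likelihood, library as a block), and 304 (34%) passed an adjusted p of 0.05. Of these, 170 (19%) were higher and 134 (15%) lower in endothelial nuclei. Both kinds of nuclei were cut from the same counts, so a call says only that the gene differed across libraries between nuclei so chosen. A gene could also enter the test through one kind alone, so counts over list members that were tested describe those members and not the whole list.

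Of 22 listed transporters of the barrier, 9 had enough counts to be tested, and all 9 were called higher in endothelial nuclei, with a median log2 difference of 3.27 beside 0.12 over all genes tested. The other 13 were not tested, and a gene could pass the filter by being high in endothelial nuclei alone. Slco1a4, an organic anion and thyroid hormone transporter, had lowest, median and highest levels of 1790.2, 2103 and 3472 CPM and not a single UMI in mural nuclei. Counting 3 UMIs over all mural sums as the floor, it was at least 81.4-fold higher in endothelial nuclei (edgeR adjusted p = 5.21e-07). Slc2a1, the glucose transporter GLUT1, ranged over 366 to 807 CPM in endothelial sums and had 1 mural UMI, a ratio of 66.6 (95% counting interval 11.9 to 2640.2), with an edgeR adjusted p of 5.53e-06. The large neutral amino acid carrier Slc7a5 and the efflux pumps Abcb1a and Abcg2 differed by log2 values (± SE) of 3.78 ± 0.56, 3.22 ± 0.51 and 2.46 ± 0.41. For each of these 5 genes the lowest endothelial library lay above the highest mural library. When only the 129 nuclei with check genes were summed, 43.1% of 583 genes outside the check genes were called against mural nuclei. Slco1a4 and Abcb1a have close paralogs, so reads that fit both copies may be missing from their counts.

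Genes of endothelial identity and signalling followed. Mecom, a zinc finger transcription factor, lay at 1889.6 to 3659.6 CPM, against 2 UMIs in all mural sums, a ratio of 154 (95% counting interval 42.6 to 1276). Lef1, the Wnt effector named above, held 793 to 2038 CPM and no mural UMI, which makes it at least 37.7-fold higher. Ptprb, the phosphatase that restrains TEK and VE-cadherin signalling, and the adhesion G protein-coupled receptor Adgrl4 were at least 61.1-fold and 55.5-fold higher by the same floor. So were the secreted EGF-like protein Egfl7 (20.4-fold), Cyyr1 (20.0-fold), the matrix protein Hmcn1 (20.6-fold), the protein kinase C isoform Prkch (16.5-fold), Rundc3b (59.4-fold) and Rassf9 (11.5-fold). The edgeR adjusted p of these 10 genes lay between 2.44e-08 and 1.42e-04. For genes at 0 in mural nuclei the fitted log2 values depend on the prior count, and only the bounds are given.

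The promoters of the 3 genes with the largest fitted log2 differences from mural nuclei that have an entry in the RefSeq table (Slco1a4, Rundc3b and Adgrl4, build GRCm38.p6) are shown because the genes were high together in endothelial nuclei. Each runs from 250 bases before to 50 after the annotated start on the gene's strand, at chr6:141856171-141856470 (minus strand), chr5:8622903-8623202 (minus strand) and chr3:151437632-151437931 (plus strand). Capitals mark CNGGAAG, a core bound by ETS factors such as ERG and FLI1, searched on both strands.
Slco1a4: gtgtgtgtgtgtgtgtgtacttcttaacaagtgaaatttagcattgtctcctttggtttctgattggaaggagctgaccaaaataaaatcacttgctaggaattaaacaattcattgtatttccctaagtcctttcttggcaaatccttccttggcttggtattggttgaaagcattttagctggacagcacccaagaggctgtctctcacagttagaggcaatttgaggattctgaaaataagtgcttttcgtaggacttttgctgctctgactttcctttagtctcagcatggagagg
Rundc3b: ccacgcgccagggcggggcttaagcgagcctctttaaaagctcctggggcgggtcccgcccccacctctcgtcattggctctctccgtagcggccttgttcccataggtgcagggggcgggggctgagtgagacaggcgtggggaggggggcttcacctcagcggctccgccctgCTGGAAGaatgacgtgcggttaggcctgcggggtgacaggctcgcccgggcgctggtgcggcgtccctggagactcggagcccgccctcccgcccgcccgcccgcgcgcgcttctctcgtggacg
Adgrl4: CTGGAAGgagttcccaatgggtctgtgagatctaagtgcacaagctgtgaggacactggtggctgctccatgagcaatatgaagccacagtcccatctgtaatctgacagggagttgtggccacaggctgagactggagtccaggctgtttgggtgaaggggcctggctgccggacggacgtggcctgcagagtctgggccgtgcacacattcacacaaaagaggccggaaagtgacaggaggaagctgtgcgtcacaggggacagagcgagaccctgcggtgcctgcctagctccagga

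The motif occurred once in Rundc3b and once in Adgrl4 and not in the Slco1a4 window. Of the 12 genes with the largest fitted log2 differences, 9 had an entry and 4 of these held it, beside 31.6% of all 27025 promoters of this length. CTTTGAT, a core bound by LEF1 and TCF factors, was in 2 of the 9 and in 3.72% of all promoters, and in none of the 3 shown.

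Among the genes with the lowest levels relative to mural nuclei were Ednra, Slc38a11, Carmn, Lama2 and 4933431K23Rik. Ednra, the endothelin receptor of smooth muscle and pericytes, had no UMI in any endothelial sum and 702 to 1508 CPM in mural sums, at least 146-fold lower by the same floor. The amino acid transporter Slc38a11 and the smooth muscle transcript Carmn were also at 0 (at least 129-fold and 71.3-fold lower). The laminin Lama2 had 2 endothelial UMIs and the noncoding transcript 4933431K23Rik had 1, with endothelial to mural ratios of 0.00318 (95% counting interval 0.000382 to 0.0117) and 0.00423 (95% counting interval 0.000105 to 0.0246).

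Of 7 genes of the shared basement membrane that could be tested, 1 was called higher and 2 lower in endothelial nuclei, beside 19% and 15% of all genes. The integrin Itga1 ranged over 241 to 562 CPM against 948 to 2638 CPM (log2 difference -2.23 ± 0.31, edgeR adjusted p = 1.99e-05), and the laminin Lamc1 over 127 to 298 CPM against 569 to 1007 CPM (-1.80 ± 0.33). Col4a1, a collagen of the vascular basement membrane, overlapped, at 127 to 432 CPM and 153 to 829 CPM, and was not called (log2 difference -0.72 ± 0.37, adjusted p = 0.145). Of 7 junction genes, 4 were called higher (beside 19% of all genes), among them the scaffolds Tjp1 (1.93 ± 0.38) and Magi1 (2.71 ± 0.49). Emcn, although a selecting gene, did not separate the kinds: 34.9% of mural nuclei had a UMI of it, against 29.1% of endothelial nuclei.

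Against Muller nuclei, the glia that wrap these vessels, more genes could be tested. Muller nuclei (394, 43 to 96 per library) had a UMI of Abca8a and of at least 3 of 7 further Muller genes. None had a UMI of Flt1, Cldn5, Pdgfrb, Inpp5d, Slc17a6, Gad1 or Trpm1, by the selection. They carried on average 1.54 amacrine markers, so they were not free of neuronal RNA. Outside the selecting genes, 3289 genes were tested and 1120 (34.1%) were called, 560 (17%) higher and 560 (17%) lower in endothelial nuclei. For the 129 nuclei with check genes, 50.6% of 2682 genes outside the check genes were called, 24.1% higher and 26.5% lower.

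Among the genes that could be tested, 12 of 12 junction, 8 of 8 basement membrane, 6 of 6 vasoactive and 5 of 5 adhesion genes were called higher than in Muller nuclei, as were 14 of 16 transporter genes and 11 of 12 endothelial transcription factors. Their median log2 differences were 1.53, 3.03, 6.34, 3.53, 3.61 and 5.24, beside -0.02 over all genes tested, of which 17% were called higher. The lists hold 18, 19, 17, 13, 22 and 24 genes. A gene could pass the filter by being high in endothelial nuclei alone, so these counts describe the tested members only. Of 57 listed genes of the interferon response 25 were tested, and 16 of these were called higher than in Muller nuclei, with a median of 1.36. Sp100, a nuclear body protein induced by interferon, stood at 232 to 548 CPM against 0 to 6.59 CPM, a ratio of 211 (95% counting interval 71.2 to 1034) with an edgeR adjusted p of 1.30e-07. Against mural nuclei edgeR called 0 of 6 tested interferon genes, beside 34% of all genes tested. Of the 6, 3 (2 above and 1 below the mural level) had p under 0.05 before adjustment.

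The 12 genes with the largest differences from Muller nuclei included receptors and transporters of the cell surface. Adgrl4, Eng (a TGF-beta coreceptor), Slco2b1, Dipk2b and Cd93 had no UMI in any Muller sum and were at least 817, 136, 122, 98.0 and 112-fold higher against the floor of 3 UMIs. Slco1a4 had 2 Muller UMIs, a ratio of 1796 (95% counting interval 496 to 14851), and Ptprb had 3, a ratio of 899 (95% counting interval 307 to 4369). For Cyyr1, with 1 Muller UMI, the ratio was 882 (95% counting interval 157 to 34949.8). The ETS factor Fli1 stood at a ratio of 385 (95% counting interval 131 to 1877) and the zinc finger gene Zfp366 at 591 (95% counting interval 105 to 23473). For Entpd1, which breaks down extracellular ATP, it was 469 (95% counting interval 82.8 to 18648), and for the receptor Adgrf5 332 (95% counting interval 90.7 to 2759). Nos3, the endothelial nitric oxide synthase, held 70.8 to 387 CPM against 2 UMIs in Muller sums, a ratio of 145 (95% counting interval 39.0 to 1218). Each of these genes was higher in all 6 libraries, with no overlap.

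The 6 genes named as lower than in Muller nuclei were Frmpd4, Tenm1, Hs6st3, the kainate receptor Grik1, the potassium channel Kcnj3 and Fgf14, a regulator of sodium channels, with log2 differences from -4.57 to -2.92. The endothelial and Muller libraries overlapped for Hs6st3, Grik1 and Fgf14. Frmpd4 was uneven between Muller libraries, at 97.8 to 1203 CPM. The part of the neuronal RNA carried by Muller nuclei, given above, in these differences was not tested.

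**Figure D2:**
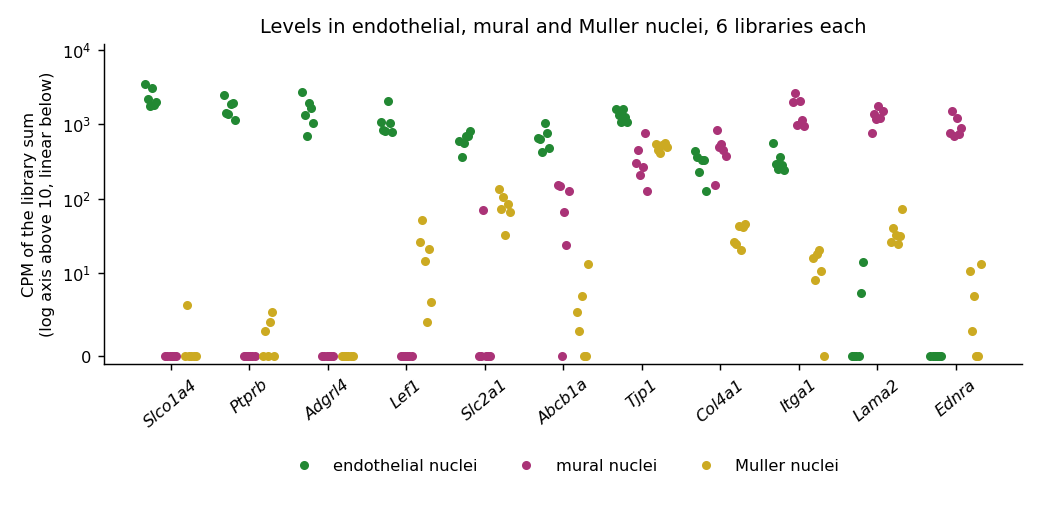
Levels in CPM (y axis, logarithmic above 10 and linear below) of 11 genes in the summed endothelial, mural and Muller nuclei, 1 point per library and 6 per kind of nucleus. Slco1a4, Ptprb, Adgrl4 and Lef1 sit at 0 in every mural library, Tjp1 and Col4a1 are shared more widely, and Itga1, Lama2 and Ednra are highest in mural nuclei.

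Lists of genes named for arterial, venous, capillary and tip cells were counted without assigning positions along the vessel tree, since other nuclei also carried some of their RNA. With at least 2 UMIs of a list required, 119 of 158 nuclei (75.3%) had venous list RNA, 114 (72.2%) capillary, 58 (36.7%) arterial and 11 (6.96%) tip cell list RNA. In Muller nuclei, which had a median of 3456 UMIs against 2462.5, these shares were 38.8%, 19%, 18.0% and 3.81%, and in mural nuclei (median 1876 UMIs) 62.8%, 9.30%, 41.9% and 6.98%. After thinning to 1000 UMIs a nucleus, the venous share was 57.1% of endothelial, 27.5% of mural, 11.4% of Muller and 3.76% of rod nuclei, and the capillary share was 57.8%, 0%, 2.93% and 2.63%. Rod nuclei were chosen without any UMI of the selecting genes, which can lower their shares. The thinned arterial share, 19% of endothelial nuclei, was not above the 25% of mural nuclei, and that of the tip cell list, 0.68%, was at the 0.752% of rods. The lists did not divide the nuclei: among the 129 nuclei with check genes, 89 had both venous and capillary list RNA and 38 both arterial and venous list RNA. Tshz2, a transcription factor on the venous list, lay at 382 to 1569 CPM. The arterial matrix protein Mgp was uneven between libraries, at 11.8 to 729 CPM, and the tyrosine kinase Bmx lay at 23.6 to 297 CPM. Of the tip cell genes, Esm1 and Kcne3 had no UMI, and the list of proliferation genes had UMIs for 7 of 16 members, with Mki67 and Top2a at 0.

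The share of nuclei with capillary list RNA was 85.2%, 81.8% and 81.8% with saline and 81.0%, 59.0% and 55.6% with IL-27. All 3 IL-27 libraries lay below the saline libraries, with means of 65.2 ± 13.8% and 82.9 ± 1.94% (SD, n = 3). A 2-sided exact permutation test gave p = 0.1, the smallest value 3 against 3 libraries allow (0.4 after Benjamini-Hochberg adjustment over the 4 lists). IL-27 4, at 81.0%, lay within 1 point of saline 2 and saline 6, both at 81.8%. In the 129 nuclei with check genes the means were 79.8% and 90.6% and the groups overlapped (exact p = 0.3), while 17.2% of the 29 nuclei with few check genes had this RNA. After thinning the difference was -10.9 points (exact p = 0.3) in place of -17.8. The arterial, venous and tip shares differed between the groups by 3.77, -3.02 and 3.05 points, with exact p of 0.7, 0.8 and 0.7.

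Endothelial nuclei were 0.273%, 0.248% and 0.233% of nuclei with saline and 0.223%, 0.422% and 0.287% with IL-27. IL-27 5 stood above the rest and the groups overlapped, with means of 0.252 ± 0.0201% for saline and 0.311 ± 0.102% for IL-27 (2-sided exact permutation p = 0.5). Without IL-27 5 the difference of 0.0595 points became 0.00375 points. With at least 2 selecting genes in place of 3, the shares were 1.04%, 1.07% and 1.23% with saline and 1.30%, 1.35% and 1.36% with IL-27, without overlap (difference 0.223 points, exact p = 0.1, the smallest possible), but few of the nuclei so added had check genes, as given above. The nuclei with check genes gave 0.215% and 0.243% (p = 0.5), and the wider set gave 0.405% and 0.475% (p = 0.6, both exact permutation tests).

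**Figure D3:**
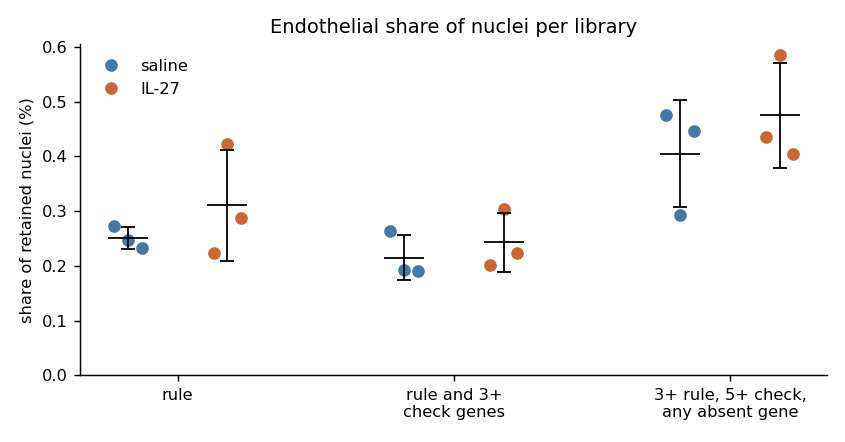
Share of retained nuclei (y axis, in %) per library for the 158 selected nuclei, for the 129 of them with at least 3 check genes and for the wider set of 248 nuclei. Points are libraries, and black marks give the mean and SD of 3 libraries, whose saline and IL-27 points overlap in all 3 sets.

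Next, the endothelial sums of the IL-27 libraries were compared with those of the saline libraries, which addresses whether the injected cytokine altered endothelial expression 2 days later. Of 1668 genes with enough counts, 0 (0%) passed an adjusted p of 0.05 in edgeR and 0 in DESeq2. At an unadjusted p under 0.05 there were 38 genes (2.28%), 20 higher (1.2%) and 18 lower (1.08%) with IL-27. In 127 genes (7.61%) all libraries of one group lay above all of the other, 62 with IL-27 higher (3.72%) and 65 with IL-27 lower (3.9%). For a gene without a difference, 3 against 3 libraries separate fully with a probability of 0.1. The share of 7.61% was below this, and the share of 2.28% was below 0.05. The nuclei were few, so these values do not show that expression was alike. The genes below are those with the smallest unadjusted p among the genes without overlap, and members of the fixed lists with p under 0.05. For the former, lack of overlap was a condition of being named and is no further result. The edgeR adjusted p of each gene named was 0.9998.

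Il1r1, the receptor for interleukin-1 and a member of the venous list, stood at 72.0, 106 and 166 CPM with saline and 299, 259 and 509.6 CPM with IL-27. All 3 IL-27 libraries were above the saline libraries, and IL-27 10 was the highest (means 115 ± 47.4 and 356 ± 135 CPM, log2 difference 1.63 ± 0.45 SE). The difference was 1.55 ± 0.54 in the 129 nuclei and 0.36 ± 0.36 in the wider set. Edn1, which encodes the vasoconstrictor endothelin-1, stood at 202, 165 and 265 CPM with saline and 52.7, 22.8 and 142 CPM with IL-27. These were 14, 14 and 16 UMIs against 3, 3 and 10, with no overlap (log2 difference -1.62 ± 0.62). In the 129 nuclei the Edn1 difference was -1.84 ± 0.68, and in the wider set it was 0.09 ± 0.44 and thus of the other sign.

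No gene of the barrier passed the adjusted threshold. Of 14 transporter genes tested, 3 were higher and 11 lower with IL-27, with a median log2 difference of -0.22 beside -0.01 over all genes. The counts were the same in the 129 nuclei (median -0.19), and in the wider set 8 of 19 were higher and 11 lower (median -0.04). Slc7a1, the carrier of arginine and lysine, stood at 432, 378 and 365 CPM with saline and 246, 236 and 127 CPM with IL-27, and the groups did not overlap (log2 difference -0.95 ± 0.32; -0.93 ± 0.30 in the 129 nuclei and -0.33 ± 0.46 in the wider set). Slco1a4 stood at 3472, 2196 and 1790.2 CPM with saline and 3039.8, 1812 and 2009.9 CPM with IL-27, with overlapping groups and a log2 difference of -0.13 ± 0.35. Slc2a1 stood at 605, 366 and 564 CPM with saline and 703, 708 and 807 CPM with IL-27, all IL-27 libraries above the saline ones (log2 difference 0.53 ± 0.34). Of 14 junction genes 4 were higher and 10 lower (median -0.03), and Cldn5 and Tjp1 differed by 0.10 ± 0.37 and -0.03 ± 0.31.

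Among 8 basement membrane genes 1 was higher and 7 were lower with IL-27 (median -0.36). Lamc1, the gamma chain of vascular laminins, stood at 231, 295 and 298 CPM with saline and 158, 175 and 127 CPM with IL-27, without overlap (log2 difference -0.83 ± 0.32), but in the wider set the difference was -0.05 ± 0.33. Vim, the intermediate filament vimentin, stood at 86.4, 82.6 and 99.5 CPM with saline and 404, 168 and 184 CPM with IL-27. IL-27 4 was far above the other 2 IL-27 libraries, and all 3 were above the saline libraries (log2 difference 1.41 ± 0.45; 0.64 ± 0.33 in the wider set).

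**Figure D4:**
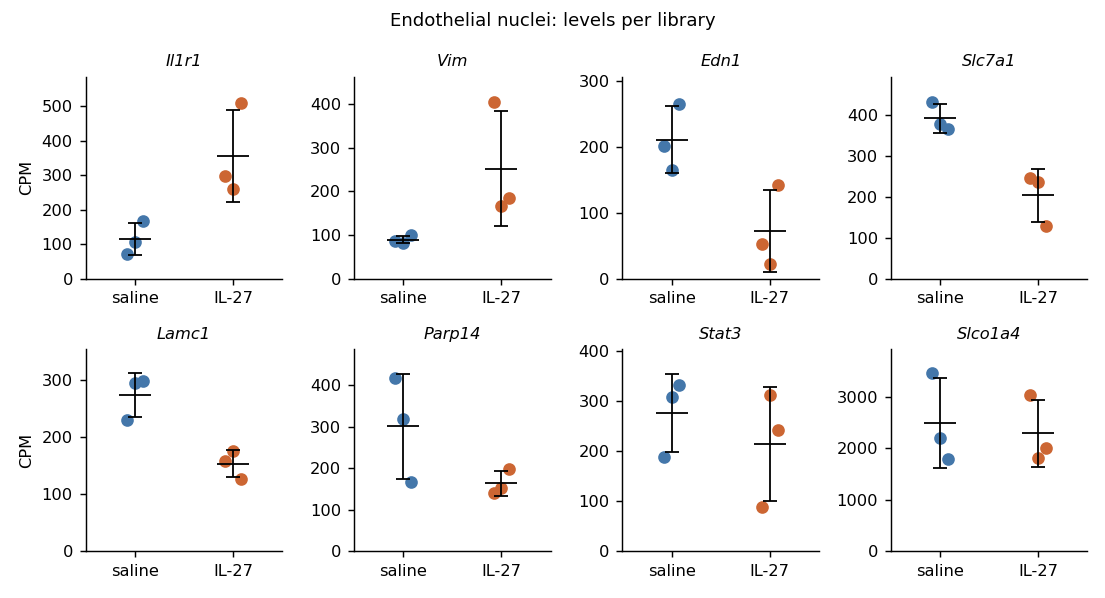
Levels in CPM (y axis, from 0) of 8 genes in the summed endothelial nuclei of each library, saline in blue and IL-27 in orange, with mean and SD of 3 libraries in black. Il1r1 and Vim are higher and Edn1, Slc7a1 and Lamc1 lower in all 3 IL-27 libraries, whereas the groups overlap for Parp14, Stat3 and Slco1a4.

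The remaining genes named by their small p among those without overlap follow. With IL-27 higher they were Mfhas1, the centrosome protein Pcm1, the membrane anchored ubiquitin-like gene Ubl3, the glycosyltransferase Mgat5, Relch and the Elongator subunit Elp4, with log2 differences between 0.91 and 1.32. With IL-27 lower they were Dab1, Cntnap2, Atg10, Glg1, the tubulin Tuba1a, Rapgef4 and Fam13a, between -1.65 and -0.86. Dab1, an adaptor of reelin signalling in neurons, stood at 1326, 921 and 1127 CPM with saline and 439, 457 and 495 CPM with IL-27. Cntnap2 stood at 1239, 720.1 and 912 CPM with saline and 509.6, 183 and 255 CPM with IL-27. Neither overlapped between the groups. In the 129 nuclei with check genes the Dab1 difference was 0.80 ± 1.11 and that of the neuronal adhesion gene Cntnap2 was 0.55 ± 0.89, both with the opposite sign. Of the 19 genes named in this comparison by their p, 14 could be tested in the 129 nuclei, and the other 12 had the sign seen in the 158. Of the 14 differences, 10 were smaller in size in the 129 nuclei. The 129 nuclei are part of the 158 in which the genes were picked, and the wider set shares 124 nuclei with them. A shared sign is therefore no separate test. In the wider set 18 of the 19 differences were smaller in size, Parp14 being the exception, and 2 (Dab1 and Edn1) had the other sign.

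**Figure D5:**
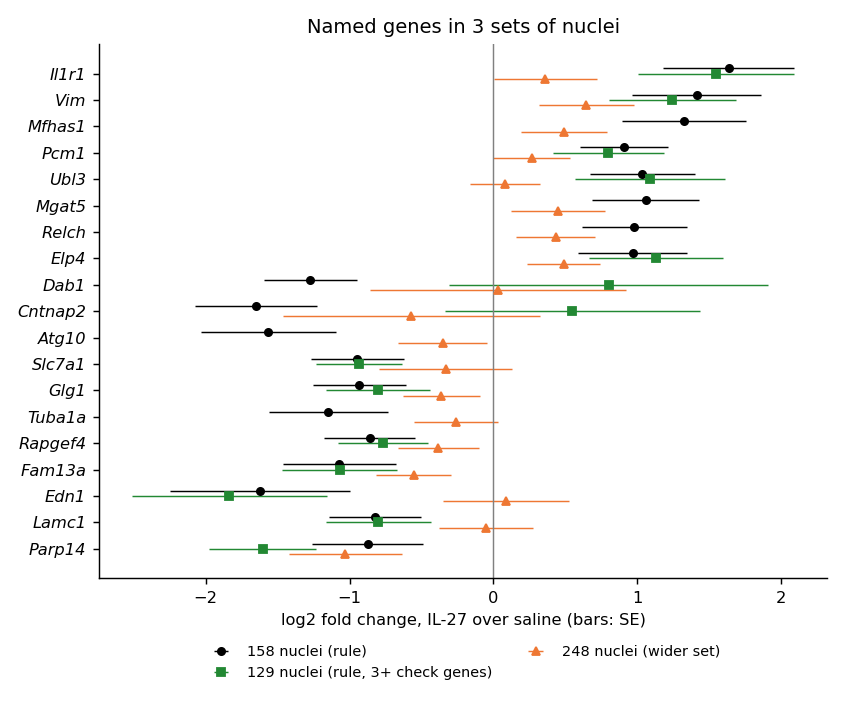
Log2 fold change of IL-27 over saline (x axis, bars give the SE) of the 19 genes named for this comparison, in the 158 nuclei (black circles), the 129 nuclei with at least 3 check genes (green squares, where tested) and the wider set of 248 nuclei (orange triangles). Dab1 and Cntnap2 change sign between the first sets, and the values of most genes lie nearer to 0 in the wider set.

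The receptor of IL-27 itself was barely seen. Il27ra had 2 UMIs in 2 of 158 endothelial nuclei (1.27%, exact 95% interval 0.154% to 4.50%), 1 in saline 1 and 1 in IL-27 10, and both lay in nuclei with check genes. No UMI was found in 43 mural, 394 Muller or 423 rod nuclei, where a count of 0 allows shares of nuclei with a UMI of up to 6.98%, 0.761% and 0.709% (3 counts, counting error only). These limits do not bear on nuclei that express the gene at a level too low to be captured at this depth. Rod nuclei, which should lack vascular receptors, served as the background and had a median of 1109 UMIs against 2462.5 in endothelial nuclei. Their selection asked for at least 5 of 8 rod markers, no UMI of the 8 selecting genes or of neuronal markers, and at most 1 Muller marker. This choice can lower their shares of other RNA. After each nucleus was thinned to 1000 UMIs, none of 147 endothelial nuclei had an Il27ra UMI (exact 95% upper limit 2.48%). Of the 423 rods, 157 had fewer UMIs than this and were left out of the thinned shares.

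Il6st, the shared gp130 subunit, had a UMI in 27.8% of endothelial nuclei (16.3% after thinning, 11 nuclei left out), against 7.57% of rods (6.39% thinned), 27.9% of mural (10.0%) and 22.3% of Muller nuclei (6.38%). The share was 40.7%, 27.3% and 40.9% with saline and 28.6%, 20.5% and 14.8% with IL-27, overlapping (2-sided exact permutation p = 0.2), and after thinning the groups differed by 0.311 points (exact p = 1). Osmr, the oncostatin M receptor that pairs with gp130, was in 31.6% of endothelial, 53.5% of mural, 12.4% of Muller and 0.946% of rod nuclei. By its counts Osmr was lower than in mural nuclei (log2 difference -1.09 ± 0.33, edgeR adjusted p = 0.0157) and higher than in Muller nuclei (1.35 ± 0.36, 0.0123). Lifr had a UMI in 19% of endothelial nuclei and 17.0% of rods, and after thinning in 6.12% and 10.5%, so that its share was not above that of the rods at equal depth.

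Downstream of the receptor, 5 of 29 genes of IL-27 and JAK-STAT signalling could be tested between the groups, 2 higher and 3 lower with IL-27 (median -0.03). Stat3, a transcription factor activated through gp130, stood at 187, 307 and 332 CPM with saline and 87.9, 312 and 241 CPM with IL-27. The groups overlapped and IL-27 4 was the lowest (log2 difference -0.30 ± 0.45). Jak1 had between 28.3 and 99.5 CPM and Jak2 between 42.5 and 165 CPM, both under the count filter. Socs3, the feedback inhibitor induced by gp130 cytokines, had 2 UMIs in all, both in IL-27 5.

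Interferon response genes gave no call either. Of 18 tested, 7 were higher and 11 lower with IL-27, with a median of -0.24 beside -0.01 over all genes. Their summed level was 10965, 6151 and 3299 CPM with saline, a wide spread with saline 1 the highest, and 6107 to 6449 CPM with IL-27. Parp14, an interferon-induced ADP-ribosyltransferase, was the 1 member with an unadjusted p under 0.05. It stood at 418, 319 and 166 CPM with saline and 141, 152 and 198 CPM with IL-27, with saline 6 inside the IL-27 range (log2 difference -0.87 ± 0.39). In the 129 nuclei the difference was -1.60 ± 0.37 (edgeR adjusted p = 0.629) and in the wider set -1.03 ± 0.40.

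RNA of other cells differed between the libraries. The 8 rod markers summed to 885 to 1707 CPM in saline and 479.7 to 3128 CPM in IL-27 libraries, with IL-27 10 the highest. The 6 blood markers, of which Pf4, Ppbp and Cd3e were at 0, came to 35.4 to 431 and 190.4 to 1212 CPM, with IL-27 4 the highest. The 6 fibroblast markers came to 0 CPM in every saline library and 17.6 to 56.6 CPM with IL-27, Col1a1, Col1a2 and Lum being at 0. These values rest on 6 UMIs of Col3a1, 2 of Pdgfra and 1 of Dcn, and 17.6 CPM is 1 UMI in IL-27 4. In the 129 nuclei with check genes IL-27 4 was at 0 CPM too. The 8 bipolar markers came to 331, 390 and 448 CPM with saline and 457, 617 and 623 CPM with IL-27, without overlap, with Trpm1 at 0 by the selection. In the 129 nuclei with check genes they overlapped, at 213 to 429 and 194 to 455 CPM. The 7 amacrine markers ran from 504 to 796 and 439 to 731 CPM, with Gad1 at 0 by the selection. The 8 mural markers reached at most 202 CPM, with Pdgfrb at 0 by the selection and Kcnj8 and Cspg4 also at 0. Xist, the noncoding RNA of the inactive X chromosome, had UMIs only in saline 2 (126) and IL-27 5 (170), 1 library of each group. The part of these differences in the results was not tested, except that a term for Xist left the number of called genes at 0.

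Whether IL-27 acted differently on endothelial and neighbouring nuclei was tested as an interaction. Against Muller nuclei 0 of 4543 genes (0%) were called by edgeR, with 163 at an unadjusted p under 0.05, and 0 by DESeq2. Against mural nuclei 1 of 1610 (0.0621%) was called, Hs6st3, a heparan sulfate sulfotransferase that lay mostly in 1 library of each kind of nucleus (158 of 212 endothelial UMIs in saline 2 and all 97 mural UMIs in IL-27 5).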

How the data were processed

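Nuclei were isolated from frozen rd10 retinas and profiled as 3' single-nucleus libraries (10x Genomics, n = 3 per group). The deposited files hold UMI counts per gene and barcode, which the authors made with Cell Ranger (9.0.1 per the labels, 8.0.1 per the file headers) against the 10x mouse reference, whose build is not given in the sources used here. The matrices named no nuclei, and the authors' Seurat 5.2.1 annotation was not used here. The members and gene lists were chosen with earlier results of these data known.

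The rule given in the results was applied to every barcode. Doublets were not removed in the reported values. As an alternative, the 8% of barcodes with the highest Scrublet scores (scanpy 1.11.5) were left out, which removed 12 of the 158 nuclei. Counts were summed per library and kind of nucleus, genes were kept with edgeR's filterByExpr at a minimum count of 10, and sums were scaled by TMM. Differences were tested with edgeR 4.0.16 (quasi-likelihood, R 4.3.3), with p-values adjusted by the Benjamini-Hochberg method over all genes tested and a threshold of 0.05. Comparisons between kinds of nuclei had the library as a block, since both sums came from the same library. Shares per library were compared with 2-sided exact permutation tests. The model scripts were tested on simulated data.

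The 8 genes per direction with the smallest p among those without overlap between the groups were named for IL-27, with list members at an unadjusted p under 0.05. For kinds of nuclei the 12 largest and 6 smallest log2 differences among called genes with a mean of at least 200.0 CPM were named, with the 5 members of each list highest in endothelial nuclei as the pool for examples. The pathway genes Il27ra, Il6st, Stat3, Jak1, Jak2 and Socs3 were named in any case, and Osmr and Lifr were added as partners of gp130. Alternatives were DESeq2 1.42.0, other scaling and filters, other marker minimums, and leaving out each library. The labels do not say that the libraries came from separate animals, so p-values measure the spread between these samples. Of 438 listed genes, 4 were not found by symbol in the files. Some genes that the naming rule selects are not reported here.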

Additional observations from a re-analysis of the deposited data

Results flagged for a closer look

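The IL-27 effect on Hs6st3 differed between endothelial and mural nuclei by -10.87 on the log2 scale in an interaction test (edgeR adjusted p = 0.00497), the 1 gene called among 1610 tested. Its endothelial counts were 16, 158 and 4 UMIs with saline and 1, 31 and 2 with IL-27, so that 158 of 212 UMIs lay in saline 2. All 97 mural UMIs lay in IL-27 5. Without saline 2 the difference was -8.31 (adjusted p = 1), and with DESeq2 it was -6.02 (adjusted p = 0.999). Without IL-27 5, in the 129 nuclei with check genes and in the wider set the gene did not pass the count filter. Against Muller nuclei the corresponding difference was -1.84 (adjusted p = 1). With the 129 nuclei with check genes, Ctnna3, which was chosen after its values were seen, was the 1 gene called in the interaction test with mural nuclei. Its IL-27 effect differed by 6.69 on the log2 scale (edgeR adjusted p = 0.0347). The part of single nuclei in these values was not tested.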

How the results depend on the processing

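No paired analysis was possible because the IL-27 and saline groups share no replicate number. Comparisons between kinds of nuclei used the library as a block, and without the replicate block 305 genes differed from mural and 1136 from Muller nuclei, against 304 and 1120 with it. Without that block Hs6st3 differed from Muller nuclei by -1.88 (adjusted p = 0.0505, edgeR).

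The IL-27 comparison called 0 genes in the reported fit and 0 when any library was left out. It called 15 without the filter on low counts, 7 higher and 8 lower with IL-27, among them Slfn4 (log2 difference 6.53), Stat4 (-5.54) and Gabrb1 (-3.80). Stat4 had only 17 endothelial UMIs in all, with a median of 0 CPM over the 6 libraries and a highest level of 177 CPM. With doublets left out the IL-27 comparison called 1 gene, Cntnap2 (log2 difference -4.31, edgeR adjusted p = 0.013). Against mural nuclei 968 genes were called without the filter, 197 with at least 4 markers and 475 in the wider set, and 222 to 306 when a library was left out. Against Muller nuclei these counts were 2279, 659 and 1899, and 890.0 to 1114. The mural median over all genes moved from 0.12 to 0.30 with DESeq2 size factors and to 0.24 with library totals, and values near 0 in that comparison shift by as much. Lamc1 differed from mural nuclei by -1.17 without the filter (adjusted p = 0.0775).

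The interaction against mural nuclei called 0 genes with DESeq2 and in the wider set, and 0 to 5 when a library was left out. Against Muller nuclei it called 6 without the filter and 0 to 2 when a library was left out.

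The difference in endothelial share was 0.223 points with at least 2 markers (exact p = 0.1), -0.093 points with no requirement on absent genes and -3.36 points as a share of endothelial and mural nuclei, and 0.00375 to 0.103 points when a library was left out. The venous difference was 7.0 points with at least 4 markers, 6.63 after thinning, 2.78 in the 129 nuclei and -10.9 to 4.70 when a library was left out. The tip difference was -8.30 points at 1 UMI, -1.52 after thinning and -0.842 to 7.60 when a library was left out, and the arterial one -0.505 to 5.91. The arterial difference was 11.9 points at 1 UMI, 10.5 in the 129 nuclei and 7.77 with at least 4 markers, against 3.77 as reported. The capillary difference was -8.52 points at 1 UMI, -7.47 with at least 4 markers and -10.9 after thinning, against -17.8. The Il27ra difference was 0.932 points with at least 4 markers, 0.305 in the 129 nuclei and -1.23 to 1.23 when a library was left out. The Il6st difference was 0.311 after thinning.

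Signs of the IL-27 differences (log2) reversed with no requirement on absent genes for Mfhas1 (-0.14), Pcm1 (-0.03), Slc7a1 (0.45), Tuba1a (0.07), Rapgef4 (0.21), Fam13a (0.18), Edn1 (0.93), Lamc1 (0.43) and Parp14 (0.02). That setting summed 775 nuclei, of which only 248 had 5 or more check genes. With at least 2 markers they reversed for Lamc1 (0.08), Parp14 (0.08) and Stat3 (0.36), with at least 4 for Dab1 (0.83) and Cntnap2 (0.51), and in the 129 nuclei for Dab1 (0.80) and Cntnap2 (0.55). In the wider set they reversed for Dab1 (0.03) and Edn1 (0.09), and under 1% mitochondrial UMIs Stat3 came to 0.00. When a library was left out Stat3 ranged from -0.67 to 0.05. The causes of these changes were not tested.

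Depth limits the results, since 1 UMI weighed 7.62 to 17.6 CPM and mural sums held as few as 6543 UMIs.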

Other observations

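Lists of signalling genes were also counted, over members that could be tested, beside 19% of all genes called higher than in mural nuclei and 17% called higher and 17% lower than in Muller nuclei. The Wnt and Norrin, TGF-beta and BMP, VEGF and angiopoietin, Notch and hypoxia lists hold 19, 18, 17, 12 and 16 genes. Here too a gene could pass the filter by being high in endothelial nuclei alone, so the counts describe tested members only. Among Wnt and Norrin genes, 3 of 4 tested were called higher than in mural nuclei and 5 of 9 higher than in Muller nuclei (edgeR adjusted p under 0.05). The Frizzled receptor Fzd6 stood at 216 to 519 CPM against 0 to 189.6 CPM in mural nuclei (log2 difference 1.76 ± 0.46). Of 10 TGF-beta and BMP genes, 7 were called higher and 2 lower than in Muller nuclei, with a median of 1.66. Of 5 genes of the VEGF and angiopoietin list outside the selecting genes, 4 were called higher (median 1.88), and of 5 Notch genes 1 was called higher and 1 lower. Of 6 hypoxia genes 2 were called higher.

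None of these lists had a gene called between IL-27 and saline by edgeR. The Wnt list had 4 genes higher and 4 lower with IL-27 (median 0.01), the TGF-beta list 4 and 3 (median 0.02), the VEGF list 3 and 4 (median 0.00) and the list of endothelial transcription factors 4 and 8 (median -0.04), and no member of these lists passed an unadjusted p of 0.05. Of 3 arterial genes tested 3 were higher with IL-27 (median 0.41), and of 4 capillary genes 1 was higher and 3 lower (median -0.45). In the wider set 6 of 6 arterial genes were higher (median 0.50), and of 7 capillary genes 4 were higher and 3 lower (median 0.06).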
